A study of Mus musculus with 12 samples.

Results

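The epithelial-mesenchymal transition (EMT) genes described here are 10 genes chosen by name: Cdh1, Cdh2, Ocln, Vim, Fn1, Snai1, Snai2, Twist1, Zeb1 and Zeb2. They are 10 of the 45706 genes in the deposited table, and each was found there by its symbol. All 10 were among the 18909 genes tested, which were those whose mean over the 12 libraries reached 0.1 TPM, a unit of transcript share. Ocln was the member closest to that limit, at a mean of 0.233 TPM.

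EMT is a program by which epithelial cells lose their junctions and polarity and take on a motile, mesenchymal state. Its hallmark is a switch from E-cadherin, encoded by Cdh1, to N-cadherin, encoded by Cdh2, along with the loss of tight junction proteins such as occludin (Ocln) and the gain of the intermediate filament vimentin (Vim) and the matrix protein fibronectin (Fn1). The switch is driven by transcription factors of the Snail (Snai1, Snai2), Twist (Twist1) and ZEB (Zeb1, Zeb2) families, which bind E-box sequences and repress Cdh1 and other epithelial genes. Low oxygen is a known inducer of several of these factors in cultured tumor cells, and in liver N-cadherin is also a normal component of hepatocyte junctions.

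The cells were BN1-Tie2-EGFP, a murine hepatoblastoma (HB) cell line in which EGFP is driven by the Tie2 (Tek) promoter, and RNA was sequenced from 12 libraries in 4 groups of 3. The unsorted groups are UN, held at 21% oxygen (normoxia), and UH, held at 1% oxygen (hypoxia) for 2 days. The sorted groups stem from EGFP-positive cells collected after hypoxia and regrown in normoxia over some 10 days, which gave SN, while a second exposure of SN to 1% oxygen, again of 2 days, gave SH. The values are TPM, which are corrected for transcript length, so that levels can be compared between genes. All 4 groups share the same background: the line came from a tumor driven by a deletion mutant of β-catenin and a missense mutant of NRF2, in which Cdkn2a had been targeted with Crispr in vivo, and it carries the Tie2-EGFP vector in pooled clones selected in G418. They are therefore derivatives of 1 line, and SN and SH cells also share 1 history of sorting and expansion, which cannot be told apart from each other. The libraries of a group are described as independent replicas, with nothing said on whether separate cultures were grown, and the p-values measure the spread between these libraries. Sequencing depth is unknown, because every TPM library sums to the same total. Genes above 0 numbered 21666 to 22369 in the SH libraries and 18901 to 20251 in the others. The part of this in values near 0 was not tested.

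The labels were compared with marker genes. Tek was at 0.0853 to 0.226 TPM in the 6 unsorted libraries and at 2.07 to 3.29 TPM in the 6 sorted libraries, with no overlap. The hypoxia-responsive genes Egln3 and Ndrg1 rose in UH vs UN, with log2 fold changes of 2.52 and 3.61, as they did among sorted cells in SH vs SN (2.63 and 3.45). The hypoxia-induced gene Car9 was at 1.11 to 1.39 TPM in UH but did not exceed 0.0692 TPM in SH, and it was not called in either comparison (log2 fold changes of 0.82 and 0.05). Leaving out UN replicate 1, the only UN library in which Car9 was above 0, raises the former by construction. It was then 1.15 and was called. Cdkn2a transcripts were present throughout, at 196 to 327 TPM in UN, 66.4 to 78.7 in UH, 10.4 to 16.5 in SN and 7.37 to 9.32 in SH, and since Crispr edits can leave a transcript in place this level does not check the genotype. Hepatocyte markers were low despite the hepatoblastoma label, and 9 of them summed to 3.46 to 19.8 TPM. Alb did not exceed 4.23 TPM and Ttr did not exceed 0.474 TPM in any library. Apob and Hnf4a had means of 5.29 and 3.85 TPM in UN and below 1 TPM in the other groups. The oncofetal gene Afp had means of 1.83 TPM in UN, 1.22 in UH, 9.20 in SN and 5.07 in SH. By contrast, 5 cholangiocyte markers, led by Spp1 in each group, summed to means of 3037 TPM in UN, 1208 in UH, 4678 in SN and 1113 in SH. Krt19, of the same list, had means of 62.0, 481, 0.837 and 4.87 TPM in that order.

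Markers of fibroblasts moved with the groups. The summed level of 10 fibroblast markers was 5267, 1347 and 1199 TPM in UN, 4987, 7244 and 6371 in UH, 204, 203 and 213 in SN, and 73.3, 79.1 and 58.9 in SH. By group mean the most abundant of them was Col3a1 in UN, Col1a1 in UH and Dcn in the sorted groups, with overlap of Col3a1 and Col1a1 libraries in UN and of Dcn and Col1a1 libraries in SH. Without UN replicate 1 the order in UN turned, with means of 464 TPM for Col1a1 and 197 TPM for Col3a1. Lum was listed at 0 in UH and SN. The sum, to which the collagens added most in unsorted cells, was thus high in unsorted and low in sorted cells, and not all markers followed it. In UN, UH, SN and SH the means were 172, 53.8, 119 and 25.4 TPM for Dcn, 44.7, 15.2, 43.8 and 6.08 TPM for Pdgfrb, and 0.731, 1.03, 1.41 and 8.89 TPM for Des. Without UN replicate 1 the UN means of Dcn and Pdgfrb were 83.7 and 29.8 TPM, below those of SN. The part of these markers in the differences of the EMT genes was not tested. In bulk RNA, fewer cells of a type and less RNA per cell cannot be told apart. Of the 9 fibroblast markers tested, 4 were called higher and 3 lower in UH vs UN by the thresholds given below, against 5.46% and 11.8% of all genes tested. Without UN replicate 1 the counts were 4 and 1, Dcn and Pdgfrb no longer passing the fold threshold (−0.64 and −0.94). For SN vs UN the count lower was 6, against 7.57% of all genes, and limma called 0 higher, against 3.20%. In the higher direction 0 markers had an unadjusted p under 0.05, against 3160 of the 18909 genes tested. Both counts of calls were the same without UN replicate 1, and 3 markers then had an unadjusted p under 0.05 in the higher direction. The marker lists were chosen with earlier results of these data known, so these counts are descriptive. Endothelial markers other than Eng, Flt1 and Tek were low, with Pecam1 at or below 0.484 TPM and Cdh5 at or below 0.0967 TPM. Among these, Vwf was at 0.907 to 1.56 TPM in SH and at 0.0649 to 0.447 TPM in the other groups. The SH libraries also had the most genes above 0, as given above. The sum of the 10 endothelial markers was 11.3 to 45.5 TPM in UN, 53.0 to 69.6 in UH, 4.57 to 5.78 in SN and 13.5 to 16.2 in SH. The leukocyte gene Ptprc did not exceed 0.121 TPM, and the sum of 7 immune markers, led by Cd74 in UN and by Cd68 in the other groups, was 9.81 to 23.6 TPM in unsorted libraries, 12.8 to 20.7 in SN and 64.9 to 72.3 in SH.

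UN replicate 1 stood apart from the other UN libraries. Its fibroblast marker sum was 5267 TPM against 1347 and 1199, and its mean correlation with its own group over the genes tested, 0.978, was the lowest of the 12 libraries. It also had 0.961 TPM of the carbonic anhydrase gene Car9, which was listed at 0 in the other UN libraries. Yet it had less of the hypoxia-responsive genes Egln3 (10.8 TPM against 24.2 and 27.5) and Ndrg1 (50.3 TPM against 122 and 114). Its levels of Cdh1, Cdh2 and Ocln lay toward those of UH, so differences of these genes from UN are also given without it. Leaving it out widens these differences by construction. Such values show how far a result depends on this library and add no support.

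Group differences of log2(TPM + 1) were tested by limma. Calls required an adjusted p (Benjamini-Hochberg, over all genes tested) under 0.05 together with an absolute log2 fold change above 1. The added 1 makes the log2 fold changes of genes at low TPM smaller than their ratios. In unsorted cells, hypoxia (UH vs UN) was accompanied by higher levels of 3 of the 10 EMT genes, Cdh2, Vim and Snai1, and lower levels of 2, Cdh1 and Snai2, against 5.46% of all genes tested called higher and 11.8% called lower. In sorted cells (SH vs SN) Vim was the only EMT gene called higher and 0 of 10 were called lower by limma, against 7.47% and 5.0% of all genes. A negative fold change at an unadjusted p under 0.05 was found for 1 EMT gene and for 4328 of the 18909 genes tested. Sorted cells in normoxia (SN vs UN) had lower Cdh1 and Snai1 and 0 EMT genes called higher, against 3.20% of all genes called higher and 7.57% called lower. There, 2 EMT genes and 3160 of the 18909 genes tested had a positive fold change at an unadjusted p under 0.05. Sorted cells in hypoxia (SH vs UH) had higher Snai2 and Zeb1 and lower Snai1, against 7.65% and 5.35%. The difference between the hypoxia responses of sorted and unsorted cells, (SH − SN) − (UH − UN), was called for Cdh1 and Snai2 in the higher direction and Cdh2 in the lower, against 8.08% and 2.18%. By adjusted p alone, 5 of the 10 EMT genes and 22.0% of all genes passed in that test. With 10 genes, chosen with earlier results of these data known, counts of 0 to 3 give no basis for calling the list different from the rest. These comparisons share groups, so they are not independent of each other.

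The median log2 fold change of the 10 EMT genes was 0.07 in UH vs UN, 0.05 in SH vs SN, −0.16 in SH vs UH and −0.15 in SN vs UN. For all genes tested it was, in the same order, −0.19, 0.03, 0.17 and −0.06. Scaling the libraries by median of ratios moved the log2 fold changes of all genes by a median of 0.31 in UH vs UN, 0.01 in SH vs SN, −0.19 in SH vs UH and 0.11 in SN vs UN, and of the difference of responses by −0.30. The split of all calls into higher and lower moved with it, from 1032 and 2222 to 1566 and 1221 in UH vs UN, from 1447 and 1012 to 1022 and 1326 in SH vs UH, and from 1527 and 412 to 903 and 783 for the difference of responses. Median-of-ratios values are therefore given for EMT genes close to the threshold.

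**Figure D1:**
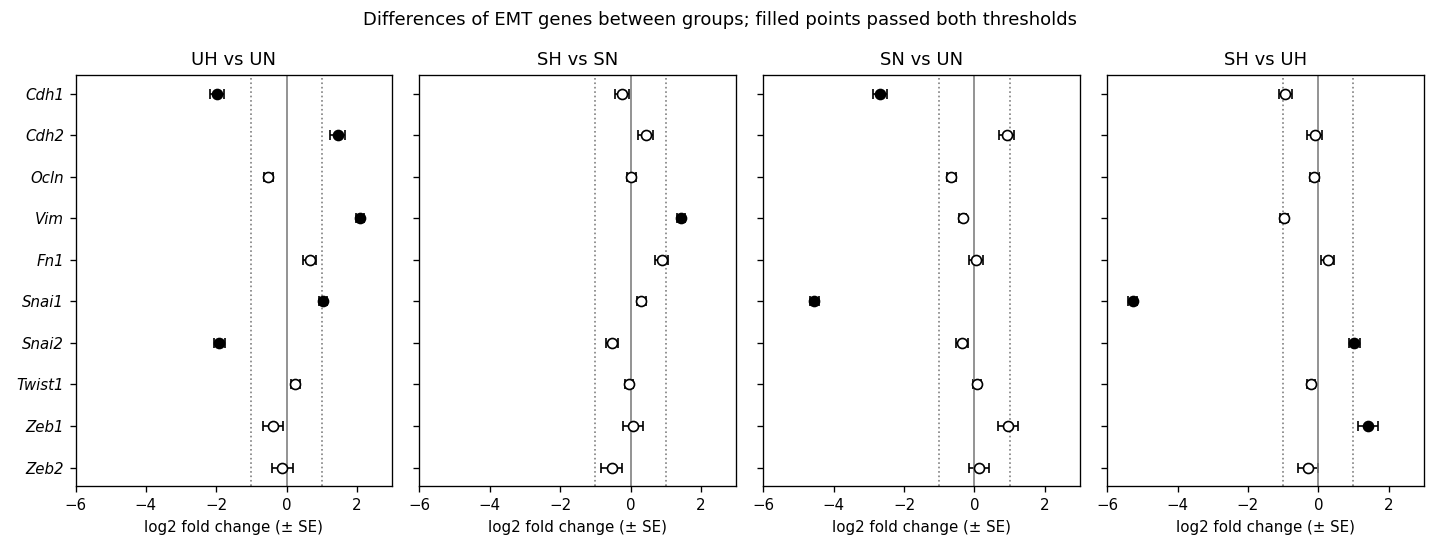
Log2 fold changes (x axis, log2(TPM + 1) scale, with SE bars) of the 10 EMT genes (y axis) in 4 comparisons, with dotted lines at −1 and 1 and filled points for genes that passed both thresholds. Snai1 had a log2 fold change of −5.28 in SH vs UH and −4.55 in SN vs UN, while Vim was called higher in both comparisons of hypoxia with normoxia.

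Cdh1 encodes the calcium-dependent adhesion molecule of epithelial adherens junctions (ENSMUSG00000000303, GRCm38 chr8:106603351-106670246, plus strand). Its level was 5.81, 10.3 and 11.1 TPM in UN, 1.27, 1.48 and 1.69 in UH, 0.573, 0.528 and 0.488 in SN, and 0.275, 0.350 and 0.258 in SH. The 4 groups did not overlap and stood in the order UN, UH, SN and SH, from 9.09 ± 2.87 TPM (SD, n = 3) down to 0.294 ± 0.0490 TPM (SD, n = 3). Even in UN, Cdh1 ranked 9059 among the 22736 genes with a mean above 0, far below the mesenchymal members. Cdh1 fell by 1.98 on the log2 scale in UH vs UN (SE 0.196, adjusted p = 8.74e-06), a 6.15-fold difference in mean TPM, and fell by 2.68 in SN vs UN (adjusted p = 1.51e-06), a 17.2-fold difference. Without UN replicate 1, the lowest of the UN libraries, the log2 fold changes were −2.25 and −2.94.

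In sorted cells the further difference with hypoxia was small on this scale, with a log2 fold change of −0.24 (adjusted p = 0.361) although the mean TPM was 1.80-fold lower and the libraries did not overlap. The hypoxia responses of the sorted and unsorted cells differed by 1.74 (SE 0.277, adjusted p = 0.00150). In SH vs UH the log2 fold change of −0.93 (adjusted p = 0.00255) missed the fold threshold, and the gene was called lower with median-of-ratios scaling (−1.06) and with a pseudocount of 0.1 (−2.0).

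Cdh2 encodes N-cadherin, the adhesion molecule of neural, mesenchymal and hepatocyte junctions (ENSMUSG00000024304). Its level was 91.5, 52.3 and 52.4 TPM in UN, 131, 192 and 211 in UH, 131, 122 and 109 in SN, and 162, 170 and 154 in SH. UN was the low group, the highest UN library being replicate 1, the range of UH contained all of SH, and the lowest UH library was level with the highest SN library. Cdh2 rose in UH vs UN by a log2 fold change of 1.45 (SE 0.215, adjusted p = 0.000183), or 1.72 without UN replicate 1. In SN vs UN the log2 fold change was 0.92 (adjusted p = 0.00626), short of the fold threshold, but it was 1.18 (adjusted p = 0.000373) without UN replicate 1 and 1.04 with median-of-ratios scaling, both of which passed. SH vs SN gave 0.43 (adjusted p = 0.138) and SH vs UH gave −0.11 (adjusted p = 0.725), the latter turning to 0.03 without UH replicate 3.

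The difference between hypoxia responses was −1.02 for Cdh2 (SE 0.304, adjusted p = 0.0332). This call was lost when any of 10 of the 12 libraries was left out, all but UN replicate 1 and UH replicate 1, with log2 values of −0.89 to −1.09 and adjusted p of 0.0508 to 0.0848 in those 10 fits, and the adjusted p over all alternatives ran from 0.00219 to 0.0848. With median-of-ratios scaling the call was kept, at −1.37.

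The ratio of Cdh2 to Cdh1 expresses the cadherin switch as a single value in each library, with no test. It was 15.8, 5.06 and 4.71 in UN, 103, 130 and 125 in UH, 229, 231 and 223 in SN, and 591, 485 and 597 in SH. No groups overlapped, and N-cadherin transcripts were more abundant than E-cadherin transcripts in all 12 libraries, UN included. The higher ratio of SN than of UH rested on lower Cdh1 with no higher Cdh2, since the mean of Cdh2 was 121 TPM in SN and 178 TPM in UH.

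**Figure D2:**
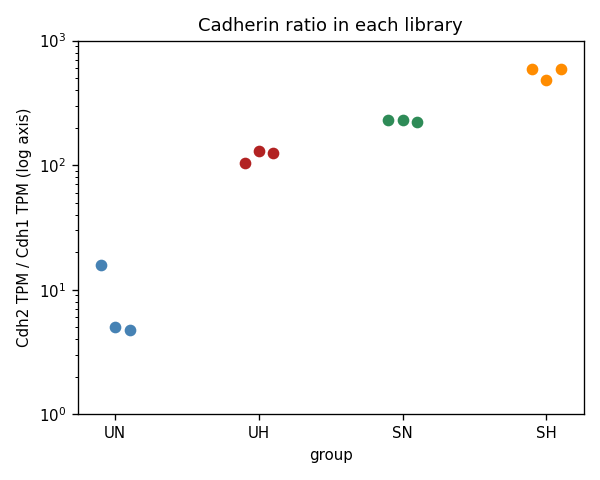
Ratio of Cdh2 TPM to Cdh1 TPM in each library (points; y axis, log scale) by group (x axis). The ratio lay between 4.71 and 15.8 in UN and between 485 and 597 in SH.

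Ocln encodes occludin, a membrane protein of tight junctions (ENSMUSG00000021638, GRCm38 chr13:100496507-100552718, minus strand). It was the least abundant of the 10 in every group, at 0.289, 0.835 and 0.886 TPM in UN, 0.142, 0.186 and 0.120 in UH, 0.0333, 0.0823 and 0.0232 in SN, and 0.103 and 0.0997 in SH replicates 1 and 2, with SH replicate 3 listed at 0. UN was the high group and did not overlap the others. Group means were 0.670 TPM in UN, 0.149 in UH, 0.0462 in SN and 0.0675 in SH, so Ocln passed the filter mainly through UN. Its values against UN are therefore descriptive, as is its difference of responses, which includes UN. No call was made: the log2 fold change was −0.52 in UH vs UN (adjusted p = 0.00711) and −0.65 in SN vs UN (adjusted p = 0.00272), where the mean TPM was 4.48-fold and 14.5-fold lower. Without UN replicate 1 these values were −0.69 and −0.83 and were not called either. With a pseudocount of 0.1 they became −1.52 and −2.30, and both passed. The values of SH and SN overlapped, with a log2 fold change of 0.03 (adjusted p = 0.902). The responses differed by 0.55 (adjusted p = 0.0579), or by 0.72 (adjusted p = 0.000937) without UN replicate 1. Over the 16 alternatives this difference ran from 0.45 to 1.66, with an adjusted p of up to 0.128, and it was called in none.

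Vim encodes vimentin, the intermediate filament protein of mesenchymal cells (ENSMUSG00000026728, GRCm38 chr2:13573927-13582826, plus strand). Its level was 1501, 1409 and 1278 TPM in UN, 5918, 6188 and 5576 in UH, 1124, 1121 and 1072 in SN, and 3200, 3166 and 2660 in SH. Both hypoxic groups lay above both normoxic groups with no overlap, and in UH Vim ranked 9 among the 21907 genes with a mean above 0. Vim rose in UH vs UN by a log2 fold change of 2.08 (SE 0.107, adjusted p = 7.41e-08) and in SH vs SN by 1.44 (SE 0.107, adjusted p = 2.00e-06). It was the only EMT gene called in both, and every alternative tried kept both calls. The responses differed by −0.64 (adjusted p = 0.0120), under the fold threshold, and by −0.55 to −0.99 over the alternatives. Vim was lower in SH than in UH by a log2 fold change of −0.97 (SE 0.107, adjusted p = 2.78e-05), just short of the fold threshold, and passed it with median-of-ratios scaling (−1.20) and without UH replicate 3, SH replicate 1 or SH replicate 2 (−1.01 to −1.02). SN vs UN gave −0.33 (adjusted p = 0.0312).

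Fn1 encodes fibronectin, a matrix glycoprotein that hepatocytes also secrete into plasma (ENSMUSG00000026193, GRCm38 chr1:71585520-71653200, minus strand). Its level was 1912, 2408 and 2358 TPM in UN, 2403, 4483 and 3926 in UH, 2396, 2304 and 2127 in SN, and 4274, 4181 and 4114 in SH. UH replicate 1 lay within the range of the normoxic libraries, while the other UH libraries and all SH libraries were above it. No call was made for Fn1 in any comparison. The log2 fold change was 0.65 in UH vs UN (adjusted p = 0.0160), which reached 1.01 and passed with median-of-ratios scaling, and 0.88 in SH vs SN (adjusted p = 0.00353), where the libraries did not overlap. The hypoxia responses differed by 0.23 (SE 0.275, adjusted p = 0.576). In SN vs UN and SH vs UH the values were 0.04 (adjusted p = 0.917) and 0.27 (adjusted p = 0.297), and their sign changed in single fits without a library.

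Snai1 encodes Snail, a zinc finger repressor of Cdh1 whose protein is short-lived (ENSMUSG00000042821, GRCm38 chr2:167538195-167542814, plus strand). Its level was 44.0, 35.9 and 36.6 TPM in UN, 80.1, 75.8 and 84.8 in UH, 0.611, 0.755 and 0.708 in SN, and 1.01, 1.02 and 1.25 in SH. No groups overlapped, and sorted cells were low in both oxygen conditions. Snai1 fell by 4.55 on the log2 scale in SN vs UN (SE 0.123, adjusted p = 1.02e-09), a 56.2-fold difference in mean TPM. It fell by 5.28 in SH vs UH (adjusted p = 1.79e-10), a 73.6-fold difference. These were the largest differences among the 10 genes, and each alternative tried kept them. Without UN replicate 1 the difference between SN and UN was −4.46.

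Hypoxia in unsorted cells was accompanied by higher Snai1, with a log2 fold change of 1.03 (SE 0.123, adjusted p = 3.68e-05) that sat at the fold threshold. It fell short of that threshold without UN replicate 2 (0.98), UN replicate 3 (0.99) or UH replicate 3 (0.99), and was 1.12 without UN replicate 1 and 1.38 with median-of-ratios scaling. In sorted cells the log2 fold change was 0.30 (adjusted p = 0.0691), with a 1.58-fold ratio of means and no overlap. The responses differed by −0.73 (SE 0.175, adjusted p = 0.0128), which passed the fold threshold only with median-of-ratios scaling (−1.07). With a pseudocount of 0.1 it shrank to −0.46 (adjusted p = 0.145). Thus Cdh1 and its repressor Snai1 were both lowest in the sorted groups, and in unsorted cells under hypoxia Cdh1 was lower where Snai1 was higher.

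Snai2 encodes Slug, a related zinc finger repressor (ENSMUSG00000022676, GRCm38 chr16:14705852-14709385, plus strand). Its level was 39.0, 44.4 and 52.4 TPM in UN, 9.34, 10.5 and 14.3 in UH, 31.6, 34.3 and 39.5 in SN, and 21.7, 23.5 and 26.9 in SH. UH was the low group, SH lay between UH and the normoxic groups, and SN and UN overlapped. Snai2 fell by 1.91 on the log2 scale in UH vs UN (SE 0.163, adjusted p = 2.96e-06), a 3.98-fold difference in mean TPM. SH vs SN gave −0.53 (adjusted p = 0.0218), and the responses differed by 1.38 (SE 0.231, adjusted p = 0.00197), a call kept by each alternative tried. The higher level in SH than in UH, 1.03 (adjusted p = 0.000403), was at the threshold and fell short of it with median-of-ratios scaling (0.82) and without UH replicate 1 (0.91), UH replicate 2 (0.98) or SH replicate 3 (0.95). SN vs UN gave −0.35 (adjusted p = 0.122).

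The Snail family members therefore moved in opposite directions with hypoxia in unsorted cells. The ratio of Snai2 to Snai1 TPM was 0.886, 1.24 and 1.43 in UN and 0.117, 0.138 and 0.169 in UH. It was 51.8, 45.4 and 55.8 in SN and 21.6, 23.1 and 21.5 in SH. Slug transcripts were the more abundant of the pair in all sorted libraries, and Snail transcripts in all UH libraries and in UN replicate 1.

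Zeb1 encodes a zinc finger and homeodomain repressor of epithelial genes, held in check in epithelia by the miR-200 family (ENSMUSG00000024238). Its level was 31.0, 22.6 and 30.2 TPM in UN, 12.9, 20.4 and 35.0 in UH, 55.0, 46.3 and 64.9 in SN, and 58.5, 67.6 and 48.6 in SH. All sorted libraries lay above all unsorted libraries, and the UH libraries were widely spread. Zeb1 was higher in SH vs UH by a log2 fold change of 1.42 (SE 0.283, adjusted p = 0.00190), a call that each alternative kept. In SN vs UN the value of 0.96 (SE 0.283, adjusted p = 0.0208) missed the fold threshold, and it passed with median-of-ratios scaling (1.08) and without UN replicate 1 (1.04), UN replicate 3 (1.02) or SN replicate 2 (1.08). With hypoxia the log2 fold change was −0.38 in UH vs UN (adjusted p = 0.299) and 0.07 in SH vs SN (adjusted p = 0.883). The former depended on single libraries, at −0.74 (adjusted p = 0.0213) without UH replicate 3 and −0.049 without UH replicate 1. It depended on the scale too, at −0.042 with median-of-ratios scaling.

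Zeb2, the other ZEB family repressor (ENSMUSG00000026872, GRCm38 chr2:44983632-45117395, minus strand), was not called in any comparison. Its level was 54.7, 36.2 and 41.2 TPM in UN, 24.4, 39.2 and 66.1 in UH, 45.9, 39.3 and 58.4 in SN, and 31.6, 33.1 and 31.9 in SH. SH was the group with the least spread and lay below all SN libraries, with a log2 fold change of −0.54 (SE 0.286, adjusted p = 0.159). UH replicates 1 and 3 were the lowest and the highest of all 12 libraries.

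Twist1, a basic helix-loop-helix factor of mesoderm and neural crest (ENSMUSG00000035799, GRCm38 chr12:33957671-33959829, plus strand), was not called in any comparison. Its level ran from 15.2 to 22.2 TPM over the 12 libraries, with group means of 16.0 in UN, 19.3 in UH, 16.9 in SN and 16.5 in SH. Its log2 fold changes were between −0.20 and 0.25 in the 4 comparisons, and no adjusted p was below 0.0992. These values depended on the scale and on single libraries. Median-of-ratios scaling gave 0.59 in UH vs UN (adjusted p = 0.000658) and −0.42 in SH vs UH (adjusted p = 0.00649), and UH vs UN reached an adjusted p of 0.0474 without UN replicate 1 and 0.0284 without UH replicate 1.

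**Figure D3:**
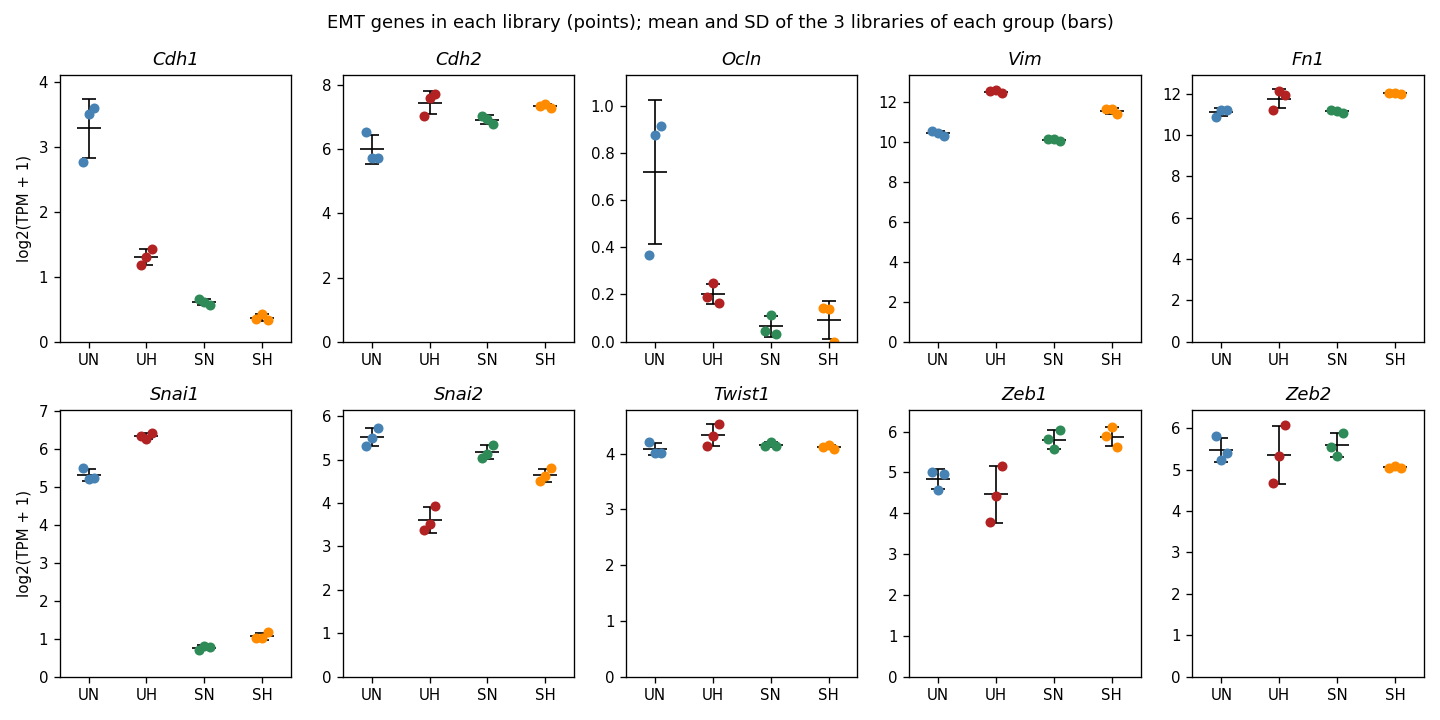
Level of each of the 10 EMT genes as log2(TPM + 1) (y axis) in the 4 groups (x axis), with a point for each library and bars for the mean and SD of the 3 libraries of a group. Snai1 and Cdh1 were low in the sorted groups, Vim was high in both hypoxic groups, and Twist1 stayed between 15.2 and 22.2 TPM.

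Ordered by mean TPM, Fn1 and Vim led in every group and Cdh2 was next, while Cdh1 and Ocln were the last in every group. In UH Vim exceeded Fn1, and in the other groups Fn1 exceeded Vim, in each case with no overlap of libraries. The transcription factors lay between these extremes. In UN, Cdh2, Snai2, Zeb2 and Snai1 followed each other with overlap between neighbours, and so did Zeb2, Zeb1 and Twist1 in UH and Zeb1, Zeb2 and Snai2 in SN. In SH no neighbours overlapped, with Zeb1 first among the factors, followed by Zeb2, Snai2, Twist1 and Snai1.

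The other cadherins, like Cdh1 and Cdh2, connect cells through their extracellular domains. Here and in the lists that follow, a count of 0 calls by limma is followed in parentheses by the number of genes with an unadjusted p under 0.05 in that direction. The counts of calls stand against the shares of all genes called higher and lower. They are descriptive, because the lists were chosen with earlier results of these data known. These shares were 5.46% and 11.8% for UH vs UN, 7.47% and 5.0% for SH vs SN, and 3.20% and 7.57% for SN vs UN. They were 7.65% and 5.35% for SH vs UH, and 8.08% and 2.18% for the difference of responses. The counts in parentheses stand against those of the 18909 genes tested with an unadjusted p under 0.05, higher and lower. These numbered 2842 and 7132 for UH vs UN, 4820 and 4328 for SH vs SN, and 3160 and 4902 for SN vs UN. They numbered 6407 and 3012 for SH vs UH, and 5432 and 1437 for the difference of responses. Of the 8 other cadherins, 7 were tested, and the counts called higher and lower were 1 and 3 for UH vs UN, 0 (2) and 3 for SH vs SN, 1 and 2 for SN vs UN, 0 (2) and 3 for SH vs UH, and 1 and 2 for the difference of responses. P-cadherin, Cdh3, was at 21.6 to 48.8 TPM in UN, 8.12 to 10.8 in UH, 0.281 to 0.422 in SN and 0.971 to 1.51 in SH. It fell by 1.80 on the log2 scale in UH vs UN and fell by 4.79 in SN vs UN, and like Cdh1 it was highest in UN, with no overlap between groups. Cdh11, a mesenchymal cadherin, fell by 1.84 in UH vs UN, from 76.9 to 140 TPM in UN to 22.1 to 41.8 TPM in UH. Cdh17, the liver-intestine cadherin, rose in UH vs UN by 2.08 and was at 7.88 to 11.4 TPM in UH and at 0.317 to 0.397 TPM in SH. Cdh16, a kidney cadherin, was higher in SN (135 to 181 TPM) than in UN (12.2 to 51.6 TPM), with a log2 fold change of 2.92, or 3.57 without UN replicate 1.

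Catenins and nectins, which tie cadherins to actin and to each other across cells, were all tested. For these 9 the counts called higher and lower were 0 (0) and 0 (3) for UH vs UN, 0 (2) and 0 (2) for SH vs SN, 0 (2) and 0 (0) for SN vs UN, 0 (5) and 1 for SH vs UH, and 1 and 1 for the difference of responses. The gene lower in SH vs UH was Vcl, encoding vinculin, with 60.4 to 108 TPM in UH and 38.7 to 41.1 TPM in SH and a log2 fold change of −1.06, which was −0.89 without UH replicate 3.

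Tight junction genes other than Ocln were tested for 16 of the 21 listed, Cldn3 being listed at 0 in all libraries. The counts called higher and lower were 0 (1) and 3 for UH vs UN, 0 (3) and 4 for SH vs SN, 4 and 2 for SN vs UN, 0 (6) and 2 for SH vs UH, and 0 (1) and 2 for the difference of responses. The pore-forming claudin Cldn2 was at 46.9 to 54.8 TPM in UN, 8.51 to 10.2 in UH, 19.0 to 21.5 in SN and 1.55 to 2.98 in SH. It fell with hypoxia in both cell populations, by 2.39 on the log2 scale in UH vs UN and by 2.78 in SH vs SN. The barrier claudin Cldn1 was at 9.01 to 16.6 TPM in UN, 4.0 to 5.85 in UH, 43.3 to 49.1 in SN and 8.26 to 9.55 in SH. It was higher in SN vs UN by 1.95, against the direction of Cdh1, and fell by 2.26 in SH vs SN, while its value of −1.08 in UH vs UN fell short of the threshold without UN replicate 1 (−0.83), without UH replicate 1 (−0.97) and with median-of-ratios scaling (−0.77).

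Desmosome genes, which anchor intermediate filaments at cell contacts, were tested for 7 of 8. The counts higher and lower were 2 and 2 for UH vs UN, 2 and 0 (1) for SH vs SN, 1 and 1 for SN vs UN, 3 and 1 for SH vs UH, and 2 and 0 (0) for the difference of responses. The desmosomal cadherin Dsg2 was at 6.08 to 6.68 TPM in UN, 1.72 to 3.37 in UH, 0.0198 to 0.0745 in SN and 0.0771 to 0.131 in SH, the UN group again being the highest, and fell by 2.83 in SN vs UN. The plaque gene Pkp2, encoding plakophilin, rose with hypoxia in both populations, by 2.04 in SH vs SN and 1.47 in UH vs UN, from 10.3 to 15.1 TPM in UN to 33.8 to 40.8 in UH and from 16.2 to 17.5 TPM in SN to 56.3 to 90.3 in SH.

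Regulators that maintain epithelial identity were tested for 11 of 16, and Epcam, Esrp1, Grhl3, Ovol2 and Prss8 were below the limit on low values. The counts higher and lower were 2 and 2 for UH vs UN, 3 and 0 (0) for SH vs SN, 0 (2) and 1 for SN vs UN, 0 (8) and 0 (2) for SH vs UH, and 1 and 0 (0) for the difference of responses. Klf4, a zinc finger activator of epithelial genes, rose in both comparisons with hypoxia, by 2.06 in UH vs UN (15.6 to 17.4 TPM in UN, 58.7 to 80.8 in UH) and by 1.71 in SH vs SN (9.37 to 15.0 TPM in SN, 37.6 to 40.6 in SH). Ovol1, a repressor of mesenchymal genes, rose by 1.15 and 1.58, with 0.0945 to 0.276 TPM in UN, 1.54 to 1.86 in UH, 0.174 to 0.288 in SN and 1.89 to 4.03 in SH. The epithelial factors Ehf and Elf3, both at −1.05, were called lower in UH vs UN, and neither call was kept with median-of-ratios scaling (−0.71 and −0.72) or without UN replicate 2, UN replicate 3 or UH replicate 1.

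Other EMT transcription factors were tested for 12 of 12. The counts higher and lower were 1 and 1 for UH vs UN, 1 and 2 for SH vs SN, 1 and 2 for SN vs UN, 2 and 2 for SH vs UH, and 1 and 1 for the difference of responses. Prrx1, a homeobox factor of mesenchyme, was at 61.9, 9.99 and 9.99 TPM in UN, with replicate 1 again apart, 41.6 to 69.6 in UH, 0.0374 to 0.175 in SN and 0.177 to 0.302 in SH. It fell by 4.13 in SN vs UN, or by 3.29 without UN replicate 1, and by 5.45 in SH vs UH. Foxc2, a forkhead factor of mesenchyme, fell by 2.41 and 2.44 from 3.31 to 5.46 TPM in the unsorted libraries to 0.0240 TPM or less in the sorted ones. Prrx1 and Foxc2 were thus low in the sorted groups, as was Snai1. Tcf4, of the same list, went the other way, with means of 35.9 TPM in UN, 32.0 in UH, 76.2 in SN and 63.5 in SH. It was called higher in SN vs UN (1.07) and SH vs UH (1.02), calls that 10 and 8 of 12 alternatives kept. Foxc1 fell with hypoxia in both populations, by 2.01 and 1.26. Snai3, the remaining Snail family gene, was at 1.12 to 1.31 TPM in SH and at 0.0880 TPM or less in every other library. It passed the filter only through SH, the group with the most genes above 0. Its calls as higher in SH vs SN and SH vs UH, which are among the counts of this list, are therefore descriptive.

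The list of cofactors and inhibitors was tested for 11 of 11. It holds corepressors of the Snail and ZEB factors, enzymes that modify Snail and the Id proteins that block helix-loop-helix factors, and its counts higher and lower were 0 (2) and 4 for UH vs UN, 0 (0) and 3 for SH vs SN, 0 (5) and 0 (3) for SN vs UN, 0 (4) and 0 (0) for SH vs UH, and 0 (0) and 0 (1) for the difference of responses. Id1 was at 119 to 149 TPM in UN, 43.0 to 52.5 in UH, 153 to 258 in SN and 63.2 to 76.0 in SH. Id3 was at 163 to 223 TPM in UN, 23.4 to 27.8 in UH, 97.5 to 127 in SN and 15.4 to 35.8 in SH. Both fell with hypoxia in both populations, Id1 by 1.45 and 1.64 and Id3 by 2.87 and 2.37.

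Mesenchymal effectors, which include matrix, protease and cytoskeletal genes, were tested for 18 of 19. The counts higher and lower were 2 and 1 for UH vs UN, 3 and 1 for SH vs SN, 2 and 6 for SN vs UN, 0 (2) and 7 for SH vs UH, and 2 and 3 for the difference of responses. Loxl2, a collagen crosslinking enzyme that also stabilises Snail, was at 70.1, 16.3 and 14.8 TPM in UN, 378 to 553 in UH, 0.220 to 0.409 in SN and 1.61 to 2.51 in SH. It rose by 4.14 in UH vs UN, or 4.84 without UN replicate 1, and fell by 7.27 in SH vs UH. Postn and Fscn1, encoding the matrix protein periostin and the actin bundler fascin, had log2 fold changes of −5.57 and −5.24 in SN vs UN, from 191 to 300 and 228 to 334 TPM in UN to 3.35 to 7.06 and 5.37 to 7.84 TPM in SN. The calcium-binding protein gene S100a4 differed in the other direction, at 625 to 2192 TPM in UN and 4779 to 6018 TPM in SN, with a log2 fold change of 2.46, or 3.02 without UN replicate 1. The fibroblast marker sum given above followed the same division between unsorted and sorted groups as Postn, Fscn1, Prrx1 and Snai1, and its part in them was not tested.

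The genes most like Cdh1 over the 12 libraries, by Pearson's r of log2(TPM + 1) among the 13558 genes that averaged 1 TPM or more, were Dusp9 (0.996), Smarca1 (0.995), Adamts16 (0.994), Ogn (0.994) and Fbn2 (0.993). Like Cdh1 they were highest in UN, as for Adamts16 with means of 44.2 TPM in UN, 1.61 in UH, 0.0389 in SN and 0.0470 in SH. The genes most like Cdh2 were Xpot (0.986), Fam13b (0.975), F730043M19Rik (0.972), Zfp536 (0.970) and Tnfrsf23 (0.970). Those most like Vim were 5330426P16Rik (0.994), Proser2 (0.992), Col20a1 (0.991), Mt1 (0.990) and Ak4 (0.988), and the metallothionein gene Mt1 had means of 198 TPM in UN, 4919 in UH, 151 in SN and 1307 in SH. The libraries of a group share their condition, so these values describe group patterns and carry no p.

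The promoter of Snai1 is shown because Snai1 had the largest differences and because Snail proteins are known to bind E-boxes, including that of their own gene. RefSeq promoters (GRCm38.p6) were matched by symbol for 5 of the 10 genes, Ocln, Snai1, Twist1, Vim and Zeb2, in 9 windows of the 250 bases before a gene start. The Cdh1, Cdh2, Fn1, Snai2 and Zeb1 promoters were not matched. The Snail and ZEB E-box CAGGTG, searched on both strands (its reverse complement is CACCTG), was found in 2 of the 9 windows, that of Snai1 and 1 of the 2 windows of Ocln, and in 17.2% of the 32851 promoter windows of that length. In Snai1 it lay on the minus strand and began 126 bases before the gene start. The core of the hypoxia response element, searched as ACGTG or GCGTG on both strands, does not overlap the E-box in sequence and was found at 3 places in the Snai1 window and in 38.6% of all windows. A match describes the letters only. In the Snai1 sequence (chr2:167537945-167538194, plus strand, 5′ to 3′) the capitals mark the E-box.
Snai1: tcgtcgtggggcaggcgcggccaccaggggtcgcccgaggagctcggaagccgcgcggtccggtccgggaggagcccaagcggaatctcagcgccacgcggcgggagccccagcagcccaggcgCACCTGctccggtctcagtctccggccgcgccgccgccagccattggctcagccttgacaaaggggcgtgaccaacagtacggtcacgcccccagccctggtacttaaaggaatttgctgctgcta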

How the data were processed

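RNA of BN1-Tie2-EGFP cells was sequenced in paired ends from a stranded mRNA library kit. Gene-level TPM, 1 column for each of 12 libraries, came from the Salmon step of nf-core/rnaseq as run by the authors. The submitters' processing notes name the genome build mm10. The annotation and the strand setting of the counting were not given in the sources used here. TPM keep no depth, so precision is given by the spread of 3 libraries, and no scaling between libraries was added.

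TPM were transformed as log2(TPM + 1), and the 18909 of 45706 genes averaging 0.1 TPM or more entered a limma fit (version 3.58.1, R 4.3.3) that has a mean for each of 4 groups and empirical Bayes moderation with a trend. P-values were adjusted by Benjamini-Hochberg over all genes tested within each comparison, and the pipeline was tested on simulated data. The members, gene lists and marker lists were chosen with earlier results of these data known. Named genes were the 10 EMT genes, label and cell type markers, the 5 genes most like Cdh1, Cdh2 or Vim, and up to 2 called genes per list, direction and comparison that showed no overlap of groups, only some of which are printed. Coordinates were matched by Ensembl identifier to GENCODE M21 (GRCm38, the same assembly as mm10). Figures were drawn with Python 3.11.15 and matplotlib 3.10.9. Alternatives were a pseudocount of 0.1, no filter, median-of-ratios scaling, a filter at 1 TPM on average, the replicate number as a factor, a fit of the 2 compared groups alone, and leaving out each library.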

Additional observations from a re-analysis of the deposited data

Results flagged for a closer look

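Between sorted and unsorted cells, the response to hypoxia differed for 5 of the 10 EMT genes in the test of that difference, (SH − SN) − (UH − UN), at a limma adjusted p under 0.05, which 22.0% of all genes tested also reached. For Cdh1 the difference was 1.74 on the log2 scale (adjusted p = 0.00150), since all UH libraries were below all UN libraries by a log2 fold change of −1.98 and SH was below SN by −0.24. With a pseudocount of 0.1 it was 1.81. For Snai2 it was 1.38 (adjusted p = 0.00197), with −1.91 in unsorted and −0.53 in sorted cells. For Cdh2 it was −1.02 (adjusted p = 0.0332), with 1.45 and 0.43, and 12 of 17 alternatives lost this call, with an adjusted p of up to 0.0848. For Vim it was −0.64 (adjusted p = 0.0120), with 2.08 and 1.44, and −0.55 to −0.99 over the alternatives. For Snai1 it was −0.73 (adjusted p = 0.0128), with 1.03 and 0.30, and a pseudocount of 0.1 gave −0.46 (adjusted p = 0.145). In each of these 5 genes the sorted cells had the smaller response in the same direction. For Ocln, which passed the filter mainly through UN, the difference was 0.55 (limma adjusted p = 0.0579) with all libraries. This value is descriptive, and the fit without UN replicate 1 (0.72) adds no support. For Twist1 the difference was −0.29 (adjusted p = 0.232). Over the alternatives it ran from −0.61 to −0.18, with a limma adjusted p from 0.0121 to 0.376. Single libraries were judged by leaving each out in turn, and no outlier test was made within groups of 3.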

How the results depend on the processing

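Over the alternatives, 596 of the fold changes of the 10 EMT genes kept their direction and side of the threshold, 16 came to pass it, 19 no longer passed it and 14 changed sign. For the other named genes 754 kept both and 34 no longer passed. With a pseudocount of 0.1, all genes called higher numbered 1580 in UH vs UN, 2854 in SH vs SN, 2810 in SH vs UH and 990 in SN vs UN, those called lower 1550 in SH vs UH and 2402 in SN vs UN, and EMT genes called lower in SH vs UH 2. With median-of-ratios scaling, all genes called higher and lower numbered 1566 and 1221 in UH vs UN and 903 and 783 in the difference of responses. EMT genes called in SH vs UH numbered 1 higher and 3 lower, against 1022 and 1326 of all genes. In SN vs UN 2 EMT genes were called higher, against 745 of all genes, and in the difference of responses 2 were called lower, against 783. On that scale Zeb2 had a log2 fold change of 0.23 in UH vs UN and Fn1 −0.12 in the difference of responses. With no filter on low values, 0 EMT genes were called lower in the difference of responses, against 363 of all genes. The causes were not tested.

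Leaving out each library in turn gave 1 to 2 EMT genes higher and 1 to 2 lower in SH vs UH, 0 to 2 higher in SN vs UN, and 0 to 1 lower in the difference of responses, where all genes called lower ran from 335 to 636, the highest without UN replicate 1. In SH vs UH all genes called ran from 1299 to 1626 higher and 940 to 1117 lower, and in SN vs UN from 534 to 742 higher. Log2 fold changes whose sign depended on a library were those of Zeb2 in UH vs UN (−0.48 to 0.23), SN vs UN (−0.030 to 0.28) and SH vs UH (−0.65 to 0.057), Zeb1 in SH vs SN (−0.049 to 0.19), Cdh2 in SH vs UH (−0.31 to 0.031), and Fn1 in SN vs UN (−0.068 to 0.10), SH vs UH (−0.0021 to 0.45) and the difference of responses (−0.040 to 0.41). None of these was called with all libraries.

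Correlations of same-numbered residuals over all genes tested ran from −0.0631 to 0.141. They gave no clear sign that the replicate numbers pair the libraries, and cannot exclude a pairing that affects only some genes. With the replicate number as a block, 1032 genes were called higher and 2224 lower in UH vs UN. EMT genes called lower in the difference of responses went from 1 to 0, and all genes from 412 to 400.

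Limits are the 3 libraries of each group, of which separate culture is not stated, and 1 cell line. Depth is unknown, so values near 0, as for Ocln, have no detection limit. Sorting, expansion and the share of cell types cannot be told apart in comparisons of sorted with unsorted cells. TPM are shares, so a gene's value also depends on all other transcripts, and transcript levels do not give protein levels.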

Other observations

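The ZEB genes varied together within UH. Zeb1 was at 12.9, 20.4 and 35.0 TPM and Zeb2 at 24.4, 39.2 and 66.1 TPM in the 3 UH libraries, while their ratio was 0.528, 0.521 and 0.528. The ratio of Zeb1 to Zeb2 was 0.567, 0.625 and 0.735 in UN, 1.20, 1.18 and 1.11 in SN, and 1.85, 2.04 and 1.52 in SH. The ratio thus divided sorted from unsorted libraries with no overlap, and SH from SN. The median-of-ratios scaling factors of the UH libraries were 0.775, 0.882 and 0.956, in the same order as the ZEB levels. That order was not particular to the ZEB genes, since Tjp1 was at 30.9, 57.3 and 87.3 TPM and Tcf12 at 25.6, 46.0 and 74.1 TPM in the same libraries.

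Overlapping genes are annotated for 4 of the 10 EMT genes, Cdh2, Fn1, Zeb1 and Zeb2. The antisense gene Zeb2os was at 3.97 to 6.18 TPM in UN, 5.56 to 7.34 in UH, 6.07 to 10.4 in SN and 10.8 to 12 in SH, while Zeb2 itself was at 31.6 to 33.1 TPM in SH. Apol7d, on the strand opposite to Fn1, did not exceed 2.23 TPM. Since the strand setting of the counting was not given in the sources used here, reads of Zeb2 and Zeb2os may not have been fully separated, and their part in the Zeb2 values was not tested.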
